A study of Drosophila melanogaster with 2 samples.

Results

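The 104 vesicle traffic genes described here carry symbols that begin with Rab, Vps, Sec, Syx, Snx, Arf or Exo followed by a number (or, for Rab, by X) in the Ensembl annotation. They were taken from 17683 genes on the 6 chromosome arms 2L, 2R, 3L, 3R, 4 and X, and all 104 are among the 13945 protein-coding genes. The list holds 36 Rab, 27 Vps, 19 Sec, 10 Syx, 7 Snx, 3 Arf and 2 Exo genes. Of the 36 Rab symbols, 33 name Rab GTPases and the others (Rab3-GAP, Rab3-GEF and Rab3GAP1) name regulators. The choice used symbols and no measured value.

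Binding was profiled by chromatin immunoprecipitation and sequencing (ChIP-seq) of CG34376 fused at its C terminus to green fluorescent protein, in whole Drosophila melanogaster embryos of both sexes from a stable transgenic line, 0 to 24 h old. The deposited lists come from replicates 2 and 3, which make up 1 group of 2 libraries, with no untagged or mutant group to compare. The labels conflict: their free text names the libraries as input controls, but the assay title, the antibody field and a separately listed control experiment describe immunoprecipitated samples, which is how they were treated. Whole embryos mix all cell types and stages, so a peak cannot be placed in any cell type.

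Vesicle traffic moves membrane and cargo between organelles and the cell surface. Coats such as COPII form vesicles at the endoplasmic reticulum, Rab and Arf GTPases mark membranes and recruit effectors, tethers such as the exocyst and HOPS hold a vesicle at its target, and SNAREs, including the syntaxins (Syx), fuse it. Vps proteins, first named in yeast for defects in sorting to the vacuole, sort cargo at endosomes and lysosomes, and sorting nexins (Snx) bind endosomal membrane. In Drosophila these genes serve secretion, receptor turnover and the growth of membrane in nearly every embryonic cell.

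A promoter was called bound when a summit of the authors' thresholded list of 7025 peaks lay within 500 bp of any annotated transcription start of the gene. The thresholded peaks were the 7025 peaks of highest signal in the pooled list of 30000 candidates. A gene whose only promoter summits were among the other pooled candidates was called candidate only. The signal of a peak is the authors' own value, in their units, and is compared only within 1 list. Beside a promoter signal stand ranks from each replicate's list of 30000 candidates, with 1 the highest. They are the ranks of the gene's highest candidate within 500 bp of any of its starts in that list. That candidate need not have its summit where the thresholded peak has it.

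Bound promoters were found for 47 of the 104 genes, 45.2% (95% Wilson interval 36.0 to 54.8%). Among all protein-coding genes the share was 30.1%. A further 41 genes were candidate only and 16 had no pooled candidate near a start. Candidates, thresholded or not, lay near 84.6% of the members, against 60.4% of protein-coding genes. Of the 88 members with a candidate, 53.4% (43.1 to 63.5%) were bound, and the share among genes of any kind with a candidate, 48.2%, lay within that interval. Taking the 7025 highest candidates of a single replicate, 46 members were bound in replicate 2 and 51 in replicate 3, with 43 in both, or 46.6% ± 3.4 (SD, n = 2). The corresponding protein-coding shares were 28.8% in replicate 2 and 30.0% in replicate 3. The design has 1 group, so no test over samples was possible, and the intervals cover the counting of genes only.

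Few bound members were among the strongest sites of the experiment. Their promoter signal ran from 163 to 748 with a median of 273, and the median of all bound protein-coding genes was 268. The 1000 peaks of highest signal reached 5.28% of protein-coding promoters and only 2 members, Vps33B and Vps28. Counting a peak only for the gene with the nearest start left 30 bound members, and the excess over protein-coding genes, 15.1 percentage points, became 5.14.

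Among the families of 10 or more genes, promoters of the syntaxin and Sec genes had the higher shares. Of the Syx genes 7 of 10 were bound (70.0%, interval 39.7 to 89.2%) and of the Sec genes 12 of 19 (63.2%, 41.0 to 80.9%). The Snx share was 3 of 7 (42.9%, 15.8 to 75.0%), the Vps share 10 of 27 (37.0%, 21.5 to 55.8%) and the Rab share 13 of 36 (36.1%, 22.5 to 52.4%). Of the Arf genes 2 of 3 were bound, and of the Exo genes 0 of 2, which allows a share of up to 65.8% by the same interval. The intervals of all 7 families overlapped, so their order is not resolved by these counts. With each summit counted only for the nearest start, 6 Sec, 4 Syx, 11 Rab and 5 Vps genes were bound. These counts cannot be set against 30.1%, which was counted without that rule. Under it, the excess of all members over protein-coding genes was 5.14 percentage points. Replicate 2 alone gave 10 Sec and 7 Syx genes, and replicate 3 alone gave 12 and 7. The median signal of bound promoters was 292 for Vps, 283 for Rab, 253 for Sec, 240 for Snx and 236 for Syx genes.

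**Figure D1:**
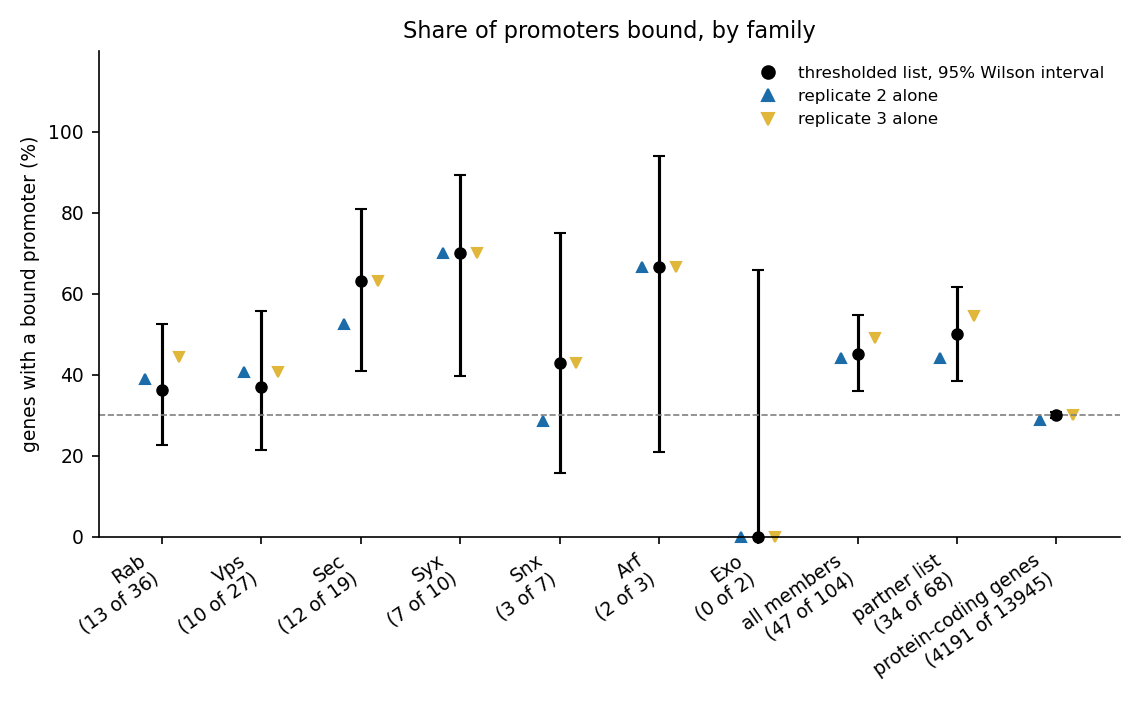
Percentage of genes with a bound promoter in each symbol family, in all 104 members, in 68 other membrane traffic genes (partner list) and in all protein-coding genes. Black points are the thresholded list with 95% Wilson intervals, triangles the 7025 highest candidates of each replicate, and the dashed line the protein-coding share of 30.1%; the Syx and Sec points stand above the others with several genes, and all family intervals overlap.

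**Figure D2:**
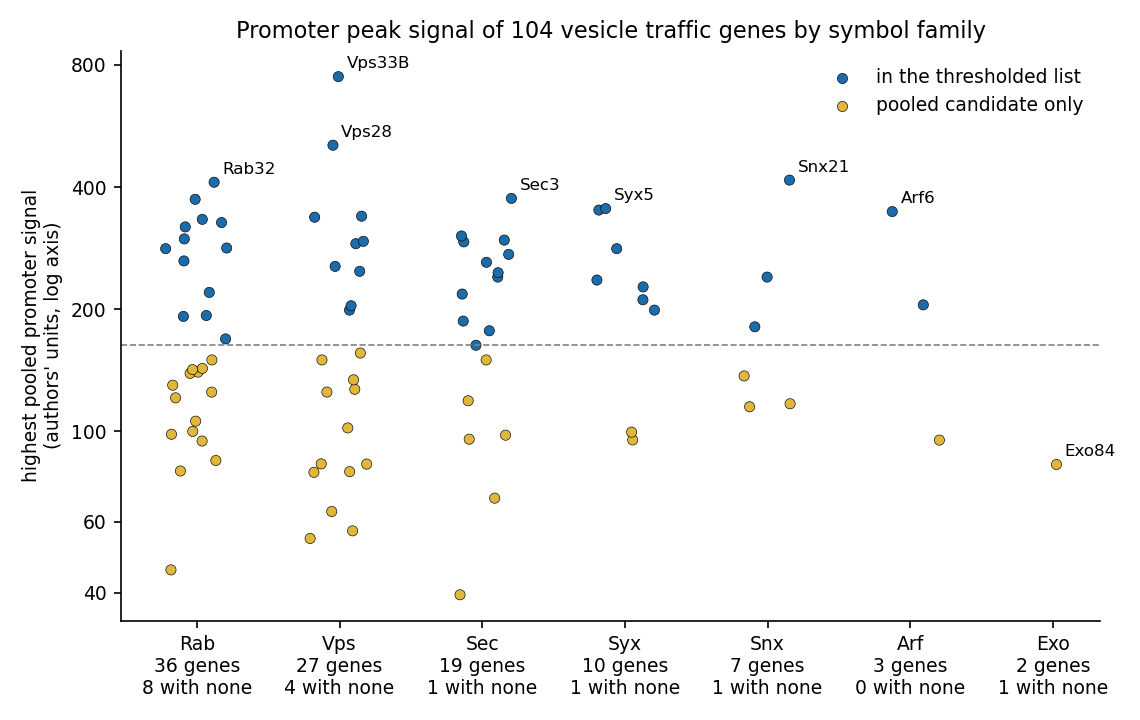
Highest pooled promoter signal of each member with a candidate, in the authors' units on a log axis, by family, with the number of genes that have none under each name. The dashed line is the lowest thresholded signal, 163; Vps33B at 748 and Vps28 at 507 stand above all other members.

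Sequences under some of the bound promoters are shown, for motifs that part of the members carried. The DNA replication-related element (DRE), TATCGATA, is a core promoter element of many broadly expressed fly genes and is bound by the factor DREF. It was found within 100 bp of 9 of the 54 distinct thresholded promoter summits of members. These sites, in capitals, are printed 5′ to 3′ on the strand of the member, from the Release 6 (dm6) genome sequence of RefSeq. The Rab8 stretch is chr3L:19871079-19871121 (minus strand), the Rab7 stretch chr3R:23992966-23993007 (plus), the Rab30 stretch chr2L:7032621-7032678 (minus) and the Vps15 stretch chr3R:9245870-9245918 (minus). The Vps16A stretch is chr3R:9266944-9267001 (plus), the Syx5 stretch chr2L:16307097-16307126 (plus), the Vps36 stretch chr3L:13513341-13513370 (minus) and the Vps52 stretch chr2L:5524246-5524275 (minus).
Rab8: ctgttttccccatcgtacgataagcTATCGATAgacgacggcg
Rab7: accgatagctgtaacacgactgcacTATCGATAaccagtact
Rab30: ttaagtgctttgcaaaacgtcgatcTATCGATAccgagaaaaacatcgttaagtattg
Vps15: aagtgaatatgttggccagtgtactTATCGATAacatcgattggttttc
Vps16A: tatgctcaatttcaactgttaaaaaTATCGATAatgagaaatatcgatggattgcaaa
Syx5: ttgccgtgggtTATCGATAtgtgcttaaca
Vps36: gcccagccactTATCGATAgtcagcgaacg
Vps52: ctccaattgtgTATCGATAgtcaaaacagc
Relative to the start, with negative values upstream, the centre of the element was at -14 bp in Rab8 and Rab7, -20 bp in Vps15, -44 bp in Rab30 and -46 bp in Vps16A. It was at -234 bp in Syx5, -244 bp in Vps36 and -362 bp in Vps52, in untranslated exon sequence of another gene. The summit itself was 10 bp from the element in Vps16A and 92 bp in Vps36. The ninth match was at Sec6.

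The GATA site, GATA preceded by A or T and followed by A or G, is the recognition sequence of GATA zinc finger factors. Matches at 4 members, picked after the values were seen from those outside untranslated sequence, are shown. The stretches are chr3R:21269083-21269138 for Rab1 (minus strand), chr3R:21108296-21108351 for Sec15 (minus), chr3R:9563774-9563829 for Vps45 (plus) and chr3R:9245932-9245987 for Vps15 (minus). In each, the match nearest the summit is in capitals.
Rab1: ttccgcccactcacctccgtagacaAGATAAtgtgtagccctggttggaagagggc
Sec15: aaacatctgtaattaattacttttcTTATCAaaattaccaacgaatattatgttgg
Vps45: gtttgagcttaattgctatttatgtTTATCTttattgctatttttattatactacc
Vps15: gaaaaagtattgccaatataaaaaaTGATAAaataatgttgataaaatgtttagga
At Rab1 the site was centred on the summit, and at Vps15 the site in capitals was 8 bp away. The Vps15 stretch holds another match, tgataa, in lower case. In Sec15 and Vps45 the site reads on the opposite strand.

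The GATA site, the DRE and 3 other motifs were counted on both strands within 100 bp of the summits, beside the 4091 thresholded promoter summits of all protein-coding genes. The DRE was at 16.7% of member summits (95% Wilson interval 9.02 to 28.7%) and at 5.4% of all. With the highest candidates of replicate 2 alone it was at 10.3% of 58 member summits (4.83 to 20.8%) and 4.68% of all, and with those of replicate 3 alone at 18.3% of 60 (10.6 to 29.9%) and 6.20% of all. The GATA site was at 31.5% (20.7 to 44.7%) and at 40.2% of all, a share inside the members' interval. GAGAGA was at 7.41% of member summits and 13.6% of all, and CTTATC, which contains the GATA core on the other strand and overlaps the GATA site when A or T follows, at 20.4% and 19.8%. The core promoter sequence known as Motif 1 was at 0 of 54 (up to 6.64%) and at 2.20% of all. Of the 47 bound members, 23 had none of these motifs within 100 bp of their strongest promoter summit, including Vps33B, Snx21 and Sec3. Further summits, which 7 bound members had, were left out of this count.

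**Figure D3:**
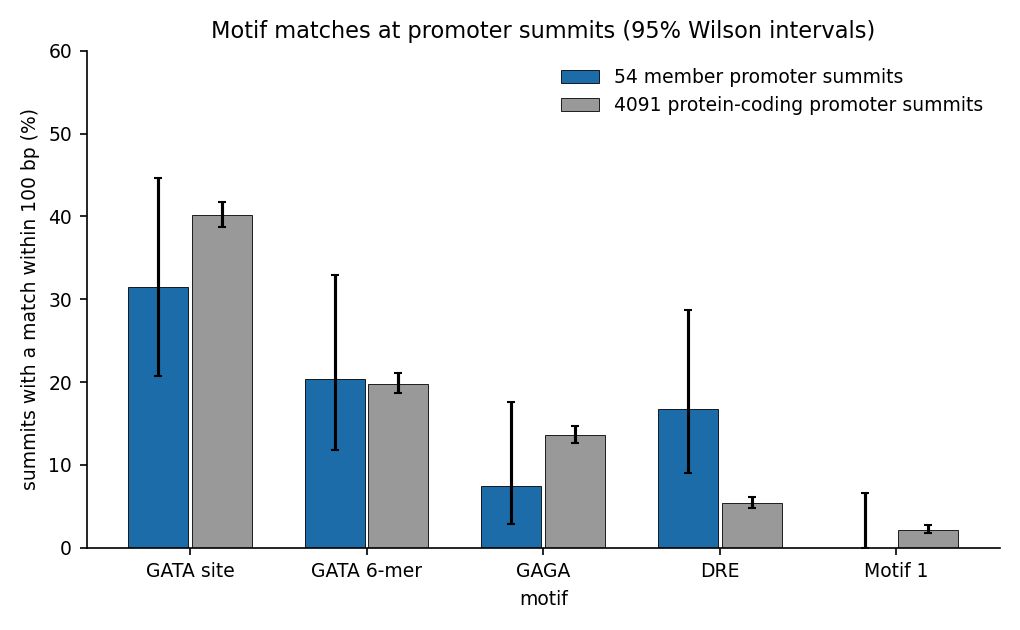
Percentage of promoter summits with a motif match within 100 bp, for 54 member summits and 4091 protein-coding summits, with 95% Wilson intervals; the GATA 6-mer is CTTATC. The DRE bar of the members, 16.7%, stands above that of all promoters, 5.4%, and the other intervals of the members cover the level of all promoters.

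The DRE was also counted from 250 bp upstream to 50 bp downstream of every start, whatever the peaks. It was present in 25 of the 104 members (24.0%) and in 10.2% of protein-coding genes. It was present in 13 of the 47 bound members (27.7%), against 15.1% of bound protein-coding genes. Among candidate-only genes it was in 12 of the 41 members (29.3%), against 14.0% of protein-coding genes. None of the 16 members without a candidate had it, which allows a share of up to 19.4%. The share of such protein-coding genes, 3.44%, lies inside that interval. Of the members with the element, 52.0% were bound (33.5 to 70.0%), and of all protein-coding genes with it 44.7%. Candidate-only members with a DRE include Rab6, Rab14, Rab35, Vps39, Vps51 and Vps53.

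The strongest member promoter was that of Vps33B (FBgn0039335), a Sec1/Munc18-type protein that acts with Vps16B in endosomal and phagosomal traffic. Its peak at chr3R:25472857-25473538 had a pooled signal of 748 and rank 278. The candidate had signal 359 and rank 384 in replicate 2, and signal 369 and rank 226 in replicate 3, so it was near the top of both lists. The summit lay 234 bp upstream of Vps33B and 198 bp from the start of the divergent gene Fur1, so it cannot be given to either gene alone. The 101 bases around it, chr3R:25473206-25473306 on the strand of Vps33B with the summit base in capitals, are 37.6% G or C and are shown because they carry the highest signal and none of the 5 motifs.
Vps33B: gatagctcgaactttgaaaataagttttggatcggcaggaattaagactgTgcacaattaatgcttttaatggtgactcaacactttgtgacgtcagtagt

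Vps28, a subunit of the ESCRT-I complex that sorts ubiquitinated cargo, followed with pooled signal 507, 104 bp upstream of its start, and ranks 671 and 941 in replicates 2 and 3. Among the 9 listed ESCRT genes that matched, Vps28 and Vps36, a subunit of ESCRT-II, were bound, beside 30.1% of all protein-coding genes. By nearest start 1 of them was bound. Vps36 had signal 294, 152 bp upstream, and ranks 2602 and 2259. The ESCRT-III genes Vps2, Vps20, Vps24 and Vps60, the ATPase gene Vps4 and Vps37B of ESCRT-I were candidate only, and Vps25 of ESCRT-II had no pooled candidate. The 3 retromer genes Vps26, Vps29 and Vps35, whose products return receptors from endosomes, were all candidate only, at signals of 134, 150 and 102.

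In HOPS and CORVET, which tether late and early endosomes, Vps16A and Vps8 were bound, and Vps11 and Vps39 were candidate only. Vps16B, which pairs with Vps33B in a complex of its own, had no candidate. Among subunits with older names, car (Vps33A) was bound at 206, dor was candidate only and lt had no candidate. Vps8 had signal 255, with its summit on the start of the divergent gene sfl and 383 bp upstream of its own. Its rank was 5654 in replicate 2 and 2408 in replicate 3. Of 4 matched genes of GARP and EARP, tethers for retrograde and recycling transport, Vps52 and Vps50 were bound at 248 and 204. The protein-coding share was 30.1%, and by nearest start 0 of the 4 were bound. Vps15, the regulatory subunit of the Vps34 lipid kinase, was bound at 290. Vps45, a Sec1/Munc18 protein that acts with syntaxins, had 337, with ranks of 3038 and 1399. Vps13, a lipid transfer protein, had 339, and its paralogs Vps13B and Vps13D had no pooled candidate.

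The exocyst tethers secretory vesicles at the plasma membrane. Its genes Sec3, Sec5, Sec6, Sec8 and Sec15 were bound, 5 of 8, beside 30.1% of all protein-coding genes. When a summit counted only for the nearest start 2 were left. Under that rule the excess of all members over protein-coding genes was 5.14 percentage points. Sec3 had signal 375, 164 bp upstream, and ranks 1504 and 1656 in replicates 2 and 3. Sec5 had 303 with ranks 2134 and 2990, and Sec6 had 273 with ranks 3810 and 2564. Sec8 was lower, at 177 with ranks 8713 and 5730, outside the highest 7025 in replicate 2. Sec10 was candidate only at 150, Exo84 was candidate only at 83.1, and Exo70 had no candidate. The Exo84 summit is also the highest pooled summit of Vps2, so it counts for both.

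The 3 genes of the Sec61 translocon, which carries new proteins into the endoplasmic reticulum, were bound, beside 30.1% of all protein-coding genes. Sec61beta had signal 296, Sec61alpha 293 and Sec61gamma 246, a narrow range. Sec61beta ranked 2340 and 3105, Sec61alpha 2877 and 2537, and Sec61gamma 5097 and 2993 in replicates 2 and 3. Sec63 had a promoter candidate of 119, and Sec61alpha and Sec63 each had a thresholded summit inside the gene, described further on. Of the 6 COPII genes, which form vesicles leaving the endoplasmic reticulum, Sec23 (240), Sec24CD (218) and Sec13 (187) were bound, beside the same 30.1%. By nearest start 1 of them was bound. Sec16, Sec24AB and Sec31 were candidate only, at 95.7, 39.6 and 68.5. At the threshold stood Sec20, an endoplasmic reticulum SNARE, with signal 163 and ranks of 11199 and 4692, which differ 2.39-fold.

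Among the syntaxins, Syx5 of the Golgi had signal 354, with ranks 1544 and 2631 in replicates 2 and 3. Syx13 of endosomes had 351, with ranks 2766 and 1205. The autophagosomal Syx17 followed at 282 (4155 and 2071), Syx6 of the trans-Golgi at 236 (3871 and 5102) and Syx18 of the endoplasmic reticulum at 227 (4513 and 3788). These 5 were in the highest 7025 of both replicates. Syx4 and the neuronal Syx1A were bound at 211 and 199. Syx7 and Syx8 were candidate only and Syx16 had no pooled candidate.

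Of the Rab GTPases proper, 12 of 33 were bound (36.4%, 22.2 to 53.4%), an interval that holds the protein-coding share of 30.1%. Rab32, which acts in lysosome-related organelles, had the highest signal of 411, 73 bp downstream of its start, with ranks 1116 and 1469. Rab8, a regulator of exocytosis, followed at 373 with its summit 5 bp from its start. Its rank was 2757 in replicate 2 and 955 in replicate 3, a ratio of 2.89 that was the largest among bound members. Rab3GAP1 (333), Rab39 (327) and Rab26 (319) completed the 5 highest Rab symbols, and each was in the highest 7025 of both replicates. Rab39 ranked 2230 and 2003, and Rab26 ranked 2301 and 2366, so their order was close between libraries.

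The Rab genes were also counted by organelle, in groups of at most 6 genes, beside 30.1% bound of all protein-coding genes. Of the 6 endoplasmic reticulum and Golgi Rabs, Rab1 (263), Rab2 (193), Rab30 (192) and Rab19 (169) were bound, and Rab6 and Rab18 were candidate only. Rab19 was absent from the candidates near its start in replicate 2. Of the 6 early and recycling endosome Rabs, Rab5 (298) and Rab11 (283) were bound, and Rab4, Rab14, Rab21 and Rab35 were candidate only. For late endosomes, Rab7 was bound at 220 and Rab9 was candidate only. Among 5 exocytic Rabs, Rab8 and Rab26 were bound, Rab3 and Rab27 were candidate only, and Rab10 of polarised secretion had no candidate. The 5 X-linked Rab9-like duplicates (Rab9D, Rab9Db, Rab9E, Rab9Fa and Rab9Fb) also had no pooled candidate. Within 500 bp of their starts the share of 31-base sequences that occur once in the genome was 24.7% in Rab9E, 29.5% in Rab9Fa, 37.9% in Rab9Db, 55.5% in Rab9D and 94.5% in Rab9Fb, and it was 100% in every bound member. The median over the 16 members without a candidate was also 100%. Of these 16, 5 were under 90%, among them RabX2 at 67.3%. How the authors treated reads that map to several places is not given in the sources used here, and the part of repeats in these missing candidates was not tested.

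The Snx and Arf genes are few. Snx21, an endosomal sorting nexin, had signal 416, 158 bp upstream, with ranks 1359 and 1106. Snx3, which binds retromer, had 240, with ranks 4921 and 2662, and Snx27 had 181, with ranks 8632 and 4077. Arf6, a GTPase of the plasma membrane and endosomes, had 348 (ranks 1384 and 2763). Arf1, which recruits COPI to the Golgi, had 205 and ranked 4816 in both replicates. Arf4 was candidate only at 95.2.

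The genes nearest the threshold differed little in signal. Just inside were Sec20 (163) and Rab19 (169), and just outside were Vps24 (156), Rab3 (150), Sec10 (150), Vps29 (150) and Rab21 (143). In replicates 2 and 3, Vps24 ranked 7051 and 8946, and Rab3 ranked 7626 and 8226. Vps29 ranked 6166 in replicate 2, inside its highest 7025, and 11474 in replicate 3.

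The replicates held nearly all bound members, with ranks that often differed. Of the 47, 46 had candidates in both replicate lists and 42 (89.4%) were in the highest 7025 of both, against 82.6% of bound protein-coding genes. The median ratio of the ranks was 1.47, against 1.39, and it exceeded 2 in 10 of 46 members and in 635 of 4159 bound protein-coding genes. Across genes, which share libraries and a control, Spearman's rho of the ranks was 0.62 for the 46 members and 0.784 for the 4159 genes. Replicate 3 gave the better rank in 28 of the members and replicate 2 in 17. The replicates shared 1 control file, and the thresholded peaks come from their pool, so these shares are a description. Some members had a candidate within 500 bp of a start in 1 replicate only. The bound Rab19, with its thresholded summit 475 bp downstream of a start, had no replicate 2 candidate within 500 bp. Candidates farther out were not looked for. At Vps13D, which is not bound, replicate 3 held a candidate 58 bp from its start at rank 1843, with signal 163, and replicate 2 and the pooled list held none within 500 bp of the start. It was the highest-ranked candidate of replicate 3 that overlapped no pooled candidate.

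**Figure D4:**
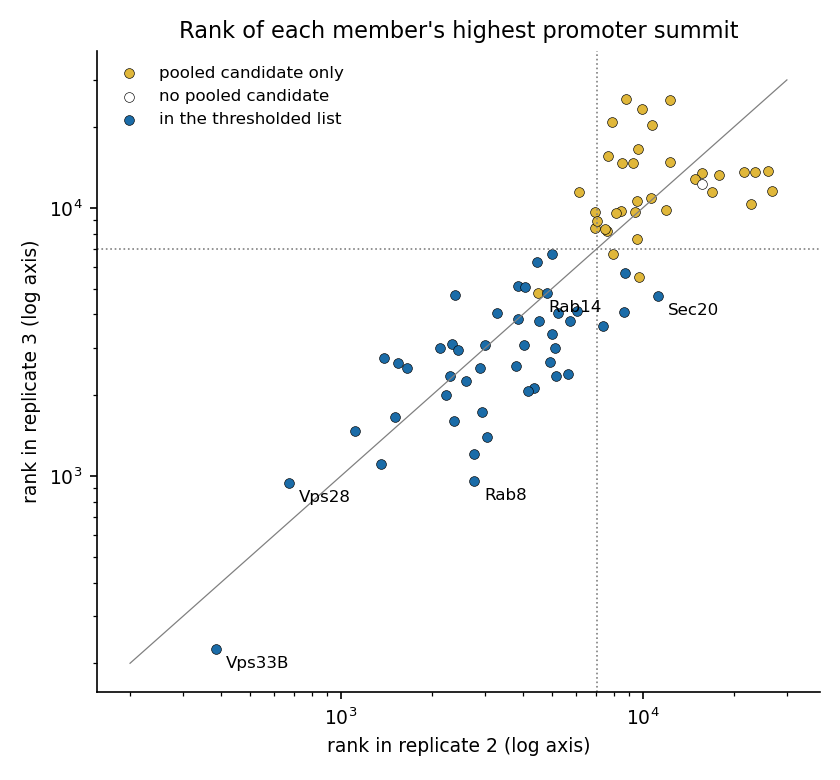
Rank of each member's highest promoter summit in replicate 2 and replicate 3, on log axes with 1 the highest, for members with a candidate in both. Dotted lines mark rank 7025, and the diagonal marks equal ranks; bound members gather at the lower left, with Vps33B highest, and Rab8 lies below the diagonal with ranks of 2757 and 955.

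Many bound members share their promoter with a gene on the opposite strand. The strongest summit lay within 500 bp of another gene's start in 28 of the 47 (59.6%), against 49.1% of bound protein-coding genes. With only protein-coding neighbours counted, the shares were 59.6% and 45.6%. In each of the 28 the neighbour was protein-coding and divergent, with the starts 48 to 568 bp apart (median 227), and in 18 the neighbour's start was the nearer. Examples are Sec6 with the autophagy gene Atg7 (205 bp between starts), Snx3 with the proton pump gene Vha55 (202 bp) and Sec5 with Cog3 (238 bp), which encodes a subunit of a Golgi tether. In Sec13 the summit was 9 bp from the start of ATPsynCF6 and 205 bp from its own, and in Vps50 it was 7 bp from PIG-A and 223 bp from its own. The own start was the nearest in 29 of the 47 members (61.7%), against 76.8% of bound protein-coding genes. It was the nearest in 4 of 10 Vps and in 11 of 13 Rab genes (84.6%).

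The nearest protein-coding neighbour, by start, was within 1000 bp and divergent for 61 of the 104 members (58.7%) and for 33.2% of protein-coding genes. Of these 61, 35 were bound (57.4%, 44.9 to 69.0%), and of all protein-coding genes with such a neighbour 44.9%. Among genes whose nearest neighbour was not of this kind, 12 of 43 members were bound (27.9%, 16.7 to 42.7%), against 22.7% of protein-coding genes. Of the 22 members with 2 or more starts 16 were bound (72.7%), against 49.7% of such protein-coding genes, and of the 82 with 1 start 31 (37.8%), against 23.0%. The part of neighbours and starts in the share of bound members was not tested.

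**Figure D5:**
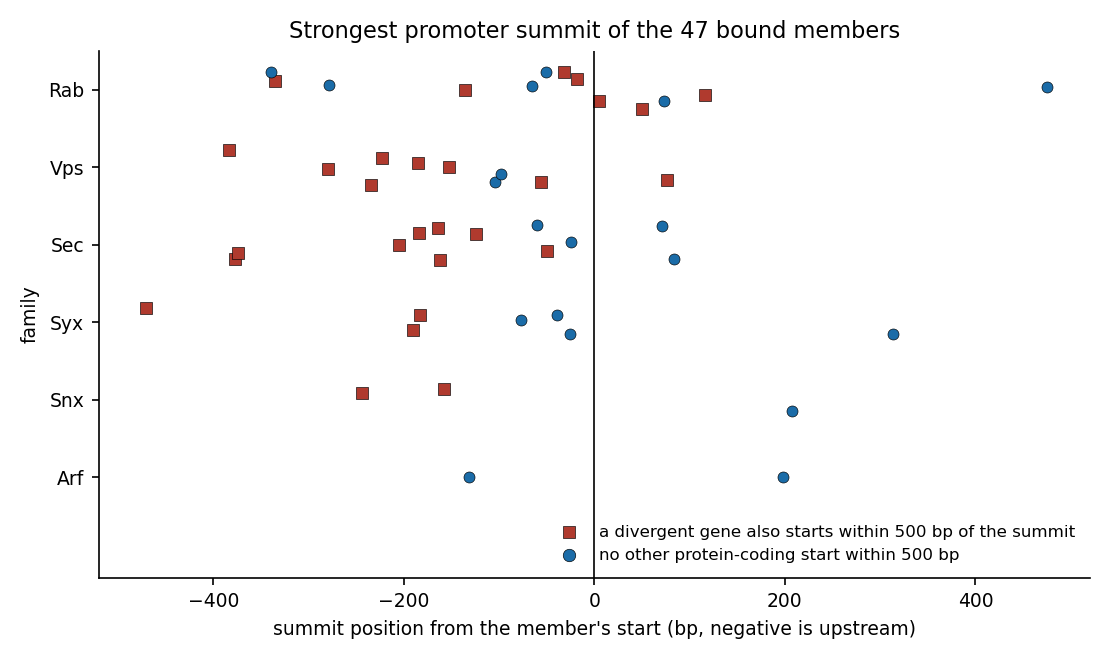
Position of the strongest thresholded summit of each of the 47 bound members relative to the member's start, in bp with negative values upstream, by family. Squares mark the 28 summits with a divergent gene's start within 500 bp; 36 summits lie upstream, and the median is −104 bp.

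Summits lay upstream of the start in 36 of the 47 members (76.6%, against 71.1% of bound protein-coding genes), and 18 were within 100 bp (38.3%, against 46.5%). By chromosome, 4 of 22 members on the X were bound (18.2%, 7.31 to 38.5%) and 43 of 82 on the autosomes (52.4%, 41.8 to 62.9%). The protein-coding shares were 27.1% and 30.6%. The 4 bound X-linked members were Rab39, Sec61gamma, Syx4 and Snx27. Pooled candidates lay near 63.6% of the members on the X, against 63.8% of X-linked protein-coding genes. Of the X-linked members with one, 28.6% were bound (11.7 to 54.6%), against 42.5%, a share inside that interval. Of the 22, 8 had no pooled candidate, and these 8 include the 5 Rab9-like duplicates.

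Summits inside the gene and over 500 bp from every start of any gene were found in 11 members, beside 9.07% of protein-coding genes. Of the 11 summits, 9 were in introns and 2 in untranslated exons, and none had a DRE within 100 bp. The highest was in Sec61alpha, with signal 331, 1060 bp from its start and ranks of 1671 and 2627. It exceeded the promoter signal of the same gene, 293. Sec63 followed with 318, 806 bp from its start and ranks of 3809 and 1572. Rab1 (269), Rab11 (256) and Syx1A (279) also had both a bound promoter and such a summit. Rab14 had one at 508 bp from a start, just beyond the window, with signal 221 and ranks of 4503 and 4805. Counting promoters and gene bodies, 52 members had a thresholded summit. The matching share of protein-coding genes was not counted, so the 52 cannot be set against a background.

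Other genes of the pathway, which the symbol rule does not take, were counted beside the members. Of 68 matched genes for coats, adaptors, SNAREs, tethers and regulators, 34 were bound (95% Wilson interval of the share 38.4 to 61.6%), beside 30.1% of protein-coding genes, or 49.3% ± 7.28 over the replicates alone (SD, n = 2). With each summit counted only for the nearest start, 24 of the 68 were bound. By group, 7 of 10 clathrin and adaptor genes, 5 of 7 Rab regulators and 3 of 3 Arf exchange factors were bound, and 4 of 13 other SNAREs. The other groups had 3 of 9 for ESCRT, 3 of 7 for COPI, 2 of 2 for COPII and 2 of 4 for AP-3. They had 4 of 6 for Sec1/Munc18 and NSF genes, 1 of 5 for golgins and tethers and 0 of 2 for HOPS. The highest was CHMP2B of ESCRT-III, at signal 1312 and ranks 50 and 41, above every member.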

How the data were processed

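Per the labels' file listings, the authors deposited candidate peaks of each replicate and of the pooled replicates, and a list thresholded by an irreproducible discovery rate procedure, on build dm6. Which aligner and peak caller were used is not given in the sources used here. For every peak the authors deposited a signal in their own units, a −log10 q value and a summit offset. The 30000 lines of each candidate list are a preset length. Read depth is unknown.

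Starts came from Ensembl 115 (BDGP6.54, the dm6 sequence). In 2 thresholded lines the summit offset passed the interval's end and was set to its last base. Shares, Wilson intervals, ranks and motif matches were computed in Python 3.11.15 with pandas 2.3.3 and numpy 2.4.6, tested on simulated data. Each replicate alone was represented by its 7025 highest candidates. The alternatives changed the summit window, the peak list and the gene a summit counts for. Of 80 symbols in the complex lists and 69 in the partner list, 73 and 68 matched the annotation.

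Genes named in detail are the 5 bound members of highest signal of each family, all members of families with at most 5 genes, the 5 highest below the threshold and the 3 with the largest rank ratio. Others are named as members of a complex list or were chosen after their values were seen. The members and lists were chosen with earlier results of these data known.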

Additional observations from a re-analysis of the deposited data

How the results depend on the processing

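Of the 47 bound members, 30 were left when a summit counted only for the nearest start, 27 with the 3512 thresholded peaks of higher signal, 2 with the 1000 highest peaks and 19 (18.3%, against 15.9% of protein-coding genes) when summits near a start of a gene outside the list were left out. Nearest starts alone gave 6 Sec, 4 Syx and 5 Vps genes. The 3512 peaks gave 6 Sec, 3 Syx, 1 Snx and 1 Arf gene and 20 partner genes. The 1000 peaks gave 2 Vps, 0 Rab, 0 Sec, 0 Syx, 0 Snx and 0 Arf genes and 3 partner genes. A window of 200 bp gave 1 Snx gene. The excess of 15.1 percentage points over protein-coding genes became 5.14 with nearest starts and reversed to -3.35 with the 1000 peaks. The excess of 5.19 points among genes with a candidate reversed to -2.80 (200 bp), -2.76 (nearest starts) and -6.19 (1000 peaks), and ranged from 4.91 without replicate 3 to 11.7 without replicate 2. The difference of median signal, 4.38, was 28.6 (200 bp), 14.6 (nearest starts), 13.1 (1 summit per merged region), -48.2 (3512 peaks) and -1.81 (1000 peaks), and ranged from -10.7 without replicate 3 to 1.08 without replicate 2. Gene bodies padded by 2000 bp gave 21 members instead of 11. Within 50 bp, 7.41% of summits had a DRE (2.71% of all protein-coding promoter summits) and 18.5% a GATA site. The nearest-start, stricter-list and narrower-window settings count fewer summits by construction, and the cause of the reversed differences was not tested. The other 88 alternative values for the main results kept their direction and stayed within the limits set for a change. Among the values for complex lists and the other motifs, 30 moved by more than those limits and 117 did not. Leaving out replicate 2 gave 2 VPS13 genes in place of 1, and leaving out replicate 3 gave 1 retromer gene in place of 0. Leaving out either replicate moved no family count by over 1.5 times. No paired analysis was possible because there is 1 group. Depth is unknown, so a missing peak does not show a lack of binding.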

Other observations

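Of the 7025 highest candidates of replicate 3, 23 (0.327%) overlapped no pooled candidate, and in replicate 2 this held for 15 (0.214%). The candidate at Vps13D was the highest-ranked of the 23. Beside it, Vps13B had a candidate near its start at rank 9446 in replicate 3 and none there in replicate 2. Syx16 had candidates near its start at ranks 15649 and 12232 in replicates 2 and 3, and none in the pooled list.

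Rab18 was candidate only near its start, at 142, and a thresholded summit with signal 325 lay 910 bp from that start, at ranks 2039 and 2317 in replicates 2 and 3. The median gene length was 2990 bp for bound members, 2708 bp for candidate-only members and 1313 bp for members without a candidate, which ran from 730 to 13557 bp. Bound protein-coding genes had a median of 3221 bp and the other protein-coding genes 1854 bp.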
